A study of Mus musculus with 18 samples.

Results

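The genes described here encode axon guidance receptors and ligands: the Eph receptors and the ephrins, the semaphorins with the plexins and neuropilins that receive them, the Slits and Robos, and the netrins and Unc5 receptors. The gene families were chosen with earlier results of these data known. Every row of the count table whose symbol belongs to 1 of 11 families was taken, which gave 68 of the 24376 genes in the table. Of these, 64 were among the 17269 genes with enough counts to test, and Robo3, Robo4, Ntn5 and Plxnb3 were not. RNA was sequenced from the epithelium of mouse mammary buds 1 to 3, dissected by hand from ventral skin after enzyme treatment, in a series that asks what Wnt and β-catenin signals do in the gland before birth. Stabilized embryos were Krt14Cre/wt; Ctnn1bflox3/wt: Cre, under the promoter of the basal keratin gene Krt14, removes exon 3 of 1 allele of the β-catenin gene in epithelial cells, and the protein made from that allele escapes destruction. Controls were littermates of the genotype Krt14wt/wt; Ctnn1bflox3/wt, which carry the same floxed allele and no Cre, so effects of Cre itself cannot be told apart from those of stabilized β-catenin. Each genotype had 4 libraries at E13.5 and 5 at E16.5, all from a mix of C57Bl/6 and NMRI. Each library pooled 2 to 3 embryos of 1 litter and genotype, from at least 3 litters in all, and which litter gave which library is not stated. Embryos of both sexes were used at E13.5 and females alone at E16.5, so stage and sex makeup cannot be told apart.

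Guidance cues attract or repel the growing tips of axons, and many of them also act between epithelial, mesenchymal and vascular cells. Ephrins sit on the cell surface and bind Eph receptor tyrosine kinases on a neighbouring cell, a contact that keeps cell groups apart at tissue boundaries. Class 3 semaphorins are secreted and bind neuropilins, which signal through class A plexins, while most other semaphorins span the membrane and bind plexins directly. Slits are secreted ligands of Robo receptors, and netrins bind Dcc, neogenin and Unc5 receptors. In the postnatal mammary gland, Slit and Robo, and netrin and neogenin, are known for holding the cell layers of the duct together.

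The libraries held 26768810 to 36922108 counts, and levels are given as CPM, the usual rescaling of counts by the library total, after TMM scaling. Whole-gene counts do not show the loss of exon 3, and Ctnnb1 itself had 2683 ± 333 CPM in E13.5 controls, with 3260 ± 347 CPM in E13.5 stabilized buds (SD; log2 fold change 0.28, adjusted p = 0.307). The Wnt target Axin2 ranged from 22.3 to 37.8 CPM in E16.5 controls and from 199 to 317 CPM in E16.5 stabilized buds, a rise of 3.19 on the log2 scale (adjusted p = 2.85e-11). At E13.5 its ranges were 260.4 to 364 and 348 to 483 CPM (0.45, adjusted p = 0.0976). The epithelial markers Epcam, Cdh1, Krt5 and Trp63 were measured at 76.2 CPM or more in every library. The whole list of 12 mammary and basal epithelium markers summed to 5652 to 6573 CPM in E13.5 controls, with 3951 to 4858 CPM in stabilized buds, and had 2 genes up and 6 down (Tbx3, Gata3, Pthlh, Krt14, Krt8 and Lef1; median -0.71), so it moved the same way as the E13.5 guidance genes that fell. At E16.5 its sums were 2991 to 3573 CPM in controls, with 4291 to 7696 CPM in stabilized buds, and 5 genes were up and 5 down. E13.5 control replicate 3 stood apart, with mitochondrial genes at 4.18% of its counts (the rest of its group had 2.18% to 2.50%) and the highest summed level of 15 mesenchyme markers (1349 CPM, against 625 CPM in the lowest E13.5 control). At E16.5 the mitochondrial share was 2.21% to 3.88% in controls and 2.62% to 5.36% in stabilized libraries, with stabilized replicates 2 and 5 the highest of all libraries (5.32% and 5.36%), so it differed in part with genotype. E13.5 stabilized replicate 2 was also far from its group for several guidance genes. Counts without E13.5 control replicate 3 and E13.5 stabilized replicate 2, chosen after their values were seen, stand beside the main E13.5 counts below. The stage counts in stabilized buds are also given without E13.5 stabilized replicate 2. E16.5 stabilized replicates 2 and 5 were left out only as single libraries. Fewer cells of a type and less RNA per cell cannot be told apart in such bulk samples.

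Markers of other cell types moved with the groups in part. Summed over 17 hair shaft and inner root sheath genes, E16.5 stabilized libraries had 5349 to 11292 CPM and E16.5 controls 25.8 to 39.4 CPM, and 17 of 17 genes rose. Hair placode genes summed to 3263 to 4154 CPM in E13.5 stabilized and 1053 to 1322 CPM in E13.5 control libraries, with 10 of 13 genes up. The 14 neuron and Schwann cell markers summed to 137 to 191 CPM in E13.5 controls, with 313 to 351 CPM in stabilized buds, mostly through Tubb3 (5.21 to 10.1 against 134.9 to 211 CPM), and 5 of the 14 were at 0 in all E13.5 controls. Of the 14 genes, 4 rose and 0 fell at E13.5 (median log2 fold change 2.72), and 3 rose and 3 fell at E16.5. Among them, the neuronal genes Elavl3, Stmn2 and Nefl stayed at or under 1.77 CPM in every library. These were selected from the list, which as a whole was higher in E13.5 stabilized buds. They do not stand for its other neuronal genes. At E16.5 the same list summed to 880 to 991 CPM in controls and 225 to 335 CPM in stabilized buds, mostly through Sox10 and Erbb3. Endothelial markers summed to at most 19.1 CPM, immune markers to at most 26.3 CPM and muscle markers to at most 30.4 CPM in any library. Mesenchyme markers had overlapping sums in control and stabilized libraries at both stages, with 1 of 15 genes up and 1 down at E13.5 and 2 up and 3 down at E16.5. The 8 melanocyte markers summed to 156 to 197 CPM in E13.5 controls, with 44.0 to 68.8 CPM in E13.5 stabilized buds. The part of these cell types, of the epithelial marker levels and of the mitochondrial share in the guidance gene results was not tested.

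At E13.5, stabilized buds had lower levels of many guidance genes. In edgeR's quasi-likelihood test, with Benjamini-Hochberg adjustment over all tested genes and a threshold of 0.05, 29 of 64 passed (45.3%, against 14.9% of all tested genes), 9 of them higher (9.58% of all genes) and 20 lower (5.29% of all genes). The median log2 fold change, stabilized minus control, was -0.17 for guidance genes and 0.01 for all genes. Without control replicate 3, 8 rose and 21 fell, without stabilized replicate 2, 11 rose and 20 fell, and without both, 9 rose and 23 fell. The fallers included 12 of 34 ligand genes and 8 of 30 receptor genes. Of the 29, 22 had groups that did not overlap (75.9%, against 79.1% of all genes that passed), which is 34.4% of tested guidance genes and 11.8% of all tested genes, and 19 passed whichever single library was left out.

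At E16.5 the balance was the other way. In edgeR, 50 of 64 guidance genes passed (78.1%, against 41.7% of all genes), 35 higher (22.2% of all genes) and 15 lower (19.4% of all genes), with a median of 0.69 against 0.10 for all genes. Of 30 receptor genes, 17 rose and 4 fell, and of 34 ligand genes, 18 rose and 11 fell. Of the 50, 40 had groups that did not overlap (80%, against 79.3% of all genes that passed), which is 62.5% of tested guidance genes and 33% of all tested genes, and 45 passed whichever single library was left out. No library serves in both genotype comparisons, and the difference between them (the interaction, the effect at E16.5 minus that at E13.5) passed for 38 of 64 guidance genes (59.4%, against 32.2% of all genes). The difference was positive for 30 (15.6% of all genes) and negative for 8 (16.6% of all genes). The median difference was 0.99, against 0.09 for all genes. These p-values measure the spread between pooled samples.

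**Figure D1:**
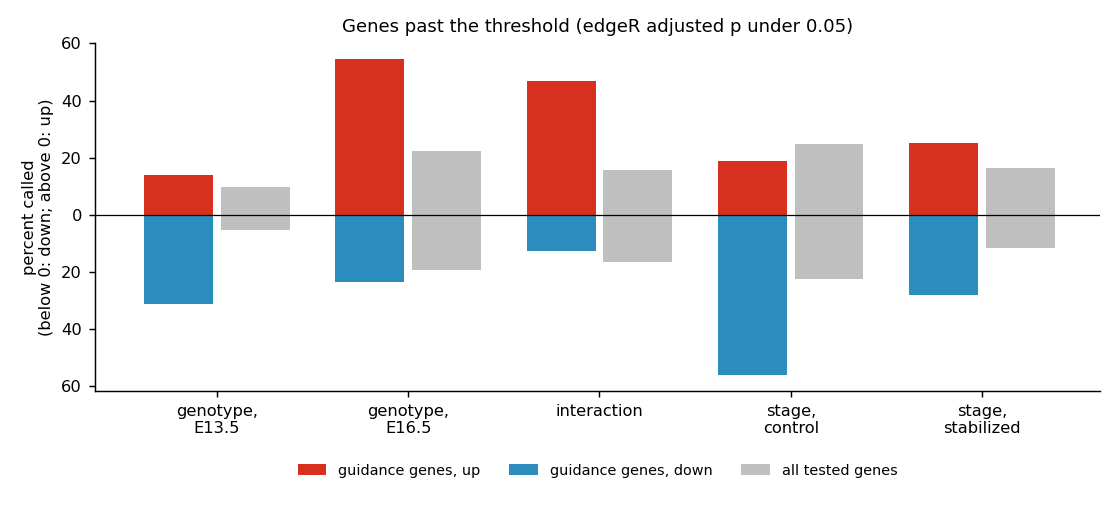
Percentage of the 64 tested guidance genes (coloured) and of all 17269 tested genes (grey) past an edgeR adjusted p of 0.05 in each of 5 comparisons, with genes that rose above the zero line and genes that fell below it. Guidance genes were mostly lower at E13.5 (20 of 29) and mostly higher at E16.5 (35 of 50) in stabilized buds.

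Among guidance genes past the threshold at both stages, the largest class fell at E13.5 and rose at E16.5: 12 genes, Efna3, Efnb2, Epha4, Plxna3, Sema3a, Sema3c, Sema3e, Sema3f, Sema4b, Sema4g, Sema5a and Unc5b. Among all tested genes, 321 did so, or 1.86%. Another 6 genes rose at both stages (Ephb1, Nrp2, Plxna4, Robo1, Slit1 and Slit3), as did 4.07% of all genes, and 4 fell at both (Efnb3, Epha7, Plxnd1 and Sema6a), as did 1.11%. Ephb3, Sema3b and Sema3g rose at E13.5 and fell at E16.5, as did 2.91% of all genes. Epha6, Ephb2, Sema3d and Unc5d fell at E13.5 and did not pass at E16.5, as did 2.33% of all genes. Another 17 of the 64 passed as higher at E16.5 alone (16.3% of all genes) and 8 as lower at E16.5 alone (15.4% of all genes). At neither stage did 10 of the 64 pass, against 53.4% of all genes.

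The calls depended in part on scaling. With the per-gene scaling of the authors' deposited normalized table in place of TMM, the E13.5 calls of Efna3, Efnb3, Epha4, Ephb2, Ephb3, Plxna3, Robo1, Sema4b, Sema4g, Sema5a and Slit1 were lost (adjusted p 0.0579 to 0.651), as were the E16.5 calls of Ntn3, Plxna3, Plxnc1, Plxnd1, Sema4d and Sema5a (0.0759 to 0.444). The interaction calls of Efna2, Epha3, Ntn3, Plxnd1, Sema4d, Sema5a, Sema6a and Unc5c were lost as well (0.0542 to 0.841). The same scaling brought Sema5b and Unc5c past the threshold at E13.5 (adjusted p = 0.0409 and 0.0468). At E16.5 it did so for Ephb6, Sema3d and Sema4a (0.00581, 0.0402 and 0.00813). Sema4a also passed in a fit of the E16.5 libraries alone (0.00485). In a fit of the E13.5 libraries alone, Efnb3, Ephb2, Ephb3, Sema3f, Sema4g and Slit1 did not pass at E13.5 (0.0509 to 0.154). With no filter on low counts, Efnb3, Ephb2 and Sema4g did not pass at E13.5 (0.056 to 0.0673) and Plxnd1 did not at E16.5 (0.0559).

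**Figure D2:**
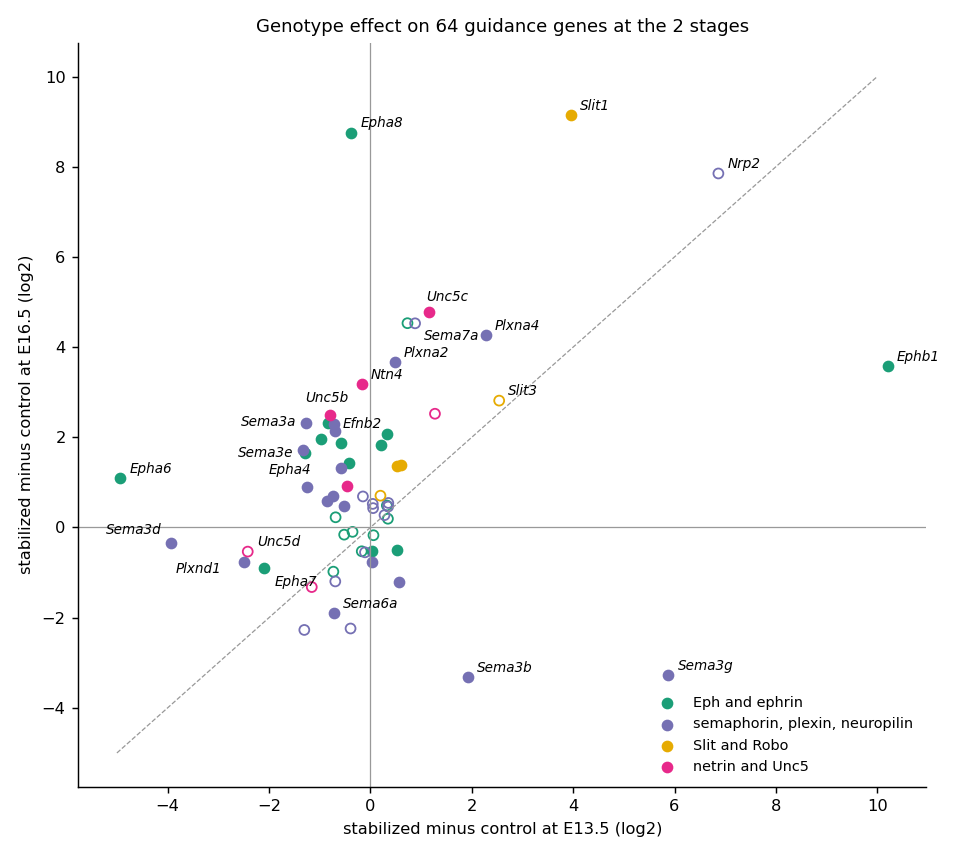
Each point is 1 of 64 guidance genes, with the log2 fold change of stabilized minus control at E13.5 on the x axis and at E16.5 on the y axis. Filled points are the 38 genes whose 2 effects differed (edgeR interaction), the dashed line marks equal effects, colours mark the 4 ligand and receptor systems, and the positions of Slit1, Epha8 and Sema3g rest on a group with 0 counts. The x position of Ephb1 rests on 4 counts in E13.5 controls. Of the filled points, 30 lie above the dashed line and 8 below it.

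The counts by family that follow stand against 9.58% higher and 5.29% lower at E13.5 and 22.2% higher and 19.4% lower at E16.5 among all tested genes. All 7 class 3 semaphorin genes passed at E13.5, 5 of them lower and 2 higher. Summed over the 7 genes, and per kilobase of exon so that genes can be compared, the level was 190.1 ± 10.7 CPM per kb in E13.5 controls and 72.3 ± 13.3 in stabilized buds (SD, n = 4 each). At E16.5 it was 141 ± 8.66 in controls and 69.6 ± 9.85 in stabilized buds (SD, n = 5 each). Which genes made up the sum differed between the groups: Sema3f (61.4 CPM per kb) and Sema3d (56.8) led in E13.5 controls, Sema3f (36.6) in E13.5 stabilized buds, Sema3b (107) in E16.5 controls, and Sema3f (24.7) and Sema3c (22.8) in E16.5 stabilized buds.

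**Figure D3:**
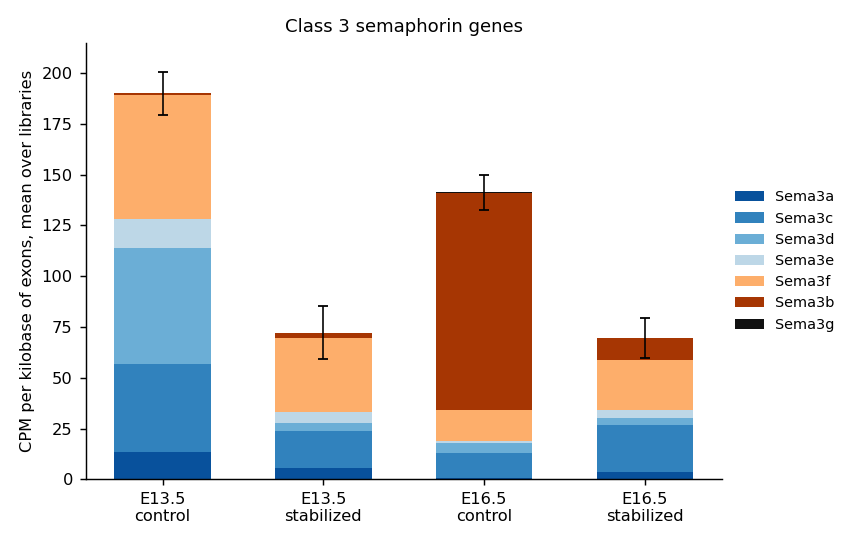
Mean CPM per kilobase of exon of the 7 class 3 semaphorin genes, stacked, in the 4 groups; bars mark the SD of the summed level over 4 or 5 libraries. Sema3b makes up 106.7 of 141 CPM per kb in E16.5 controls and 10.6 of 69.6 in E16.5 stabilized buds.

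Sema3d, Sema3a, Sema3e and Sema3c lie on chromosome 5 (GRCm38/mm10), at 12383385 to 12588948, 13125414 to 13602565, 14025276 to 14256689 and 17574281 to 17730268. Their summed level was 128 CPM per kb in E13.5 controls, 33.2 in E13.5 stabilized buds, 19.0 in E16.5 controls and 34.2 in E16.5 stabilized buds. Stabilized β-catenin acts through Tcf and Lef factors, so the 250 bases before each start site, from the RefSeq promoter table of GRCm38.p6, were searched on both strands for 4 cores of their motif: the core CTTTGAA, then the core CTTTGAT, further the core CTTTGTA, and last the core CTTTGTT. Of all 32851 windows, 14.8% held at least 1 of them, as did 6 of the 75 windows (8%) that belong to 59 of the guidance genes: those of Efna4, Epha2, Nrp2, Sema3d, Sema3e and Sema6d. Of these, 3 are shown because their genes, a receptor and a pair of chromosome 5 ligands, are described at length below. Capitals mark the match, which in Sema3d and Sema3e is the reverse complement of a searched core.
Nrp2, chr1:62703067-62703316, + strand: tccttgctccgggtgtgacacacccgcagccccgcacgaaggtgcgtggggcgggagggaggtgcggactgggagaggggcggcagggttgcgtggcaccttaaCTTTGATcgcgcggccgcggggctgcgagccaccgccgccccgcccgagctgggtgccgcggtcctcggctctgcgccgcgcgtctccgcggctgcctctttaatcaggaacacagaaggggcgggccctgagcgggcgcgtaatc
Sema3d, chr5:12382916-12383165, + strand: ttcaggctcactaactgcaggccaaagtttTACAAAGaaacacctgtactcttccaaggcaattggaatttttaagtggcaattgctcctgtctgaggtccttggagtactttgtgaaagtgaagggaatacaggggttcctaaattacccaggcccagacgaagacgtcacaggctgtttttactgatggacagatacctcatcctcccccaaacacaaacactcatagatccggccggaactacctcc
Sema3e, chr5:14025026-14025275, + strand: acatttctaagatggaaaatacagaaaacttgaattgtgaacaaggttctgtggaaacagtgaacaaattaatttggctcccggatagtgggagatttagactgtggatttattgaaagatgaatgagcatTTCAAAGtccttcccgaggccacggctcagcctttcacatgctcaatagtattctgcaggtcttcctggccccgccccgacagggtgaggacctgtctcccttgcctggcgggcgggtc
The Sema3a and Sema3c windows, chr5:13396534-13396783 and chr5:17574566-17574815, held no match. Both lie inside the gene spans given above, so the bases before those spans were not searched. A match describes these letters only.

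Sema3d, a secreted ligand, had 487, 512, 395 and 559 CPM in the E13.5 controls and 24.8, 35.9, 30.1 and 37.1 CPM in the E13.5 stabilized libraries. The groups were far apart, with the highest stabilized library at 37.1 CPM and the lowest control at 395 CPM. Sema3d fell at E13.5 (log2 fold change -3.93 ± 0.22 SE, adjusted p = 4.41e-10); values in this form below are log2 fold changes, stabilized minus control, ± SE. At E16.5 it had 47.4, 49.1, 36.3, 40.4 and 38.1 CPM in controls and 29.9, 20.7, 32.2, 48.2 and 34.7 CPM in stabilized buds. All 10 of these libraries were near the E13.5 stabilized buds and the groups overlapped. The difference did not pass (-0.35 ± 0.17, adjusted p = 0.117), although it did without stabilized replicate 4 (-0.53, adjusted p = 0.0123) and with the deposited scaling (-0.68, adjusted p = 0.0402). The effects at the 2 stages differed by 3.58 ± 0.27, adjusted p = 1.49e-08.

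Sema3e, whose product binds plexin D1 without a neuropilin, had 122, 144, 132 and 130.2 CPM in E13.5 controls, with 45.6, 49.7, 50.3 and 63.3 CPM in E13.5 stabilized buds. At E16.5 it had 11.8, 12.9, 6.88, 10.3 and 9.96 CPM in controls and 39.5, 27.2, 33.3, 40.1 and 32.01 CPM in stabilized buds. Control and stabilized libraries did not overlap at either stage, and the order turned round: stabilized buds were the lower at E13.5 (-1.34 ± 0.17, adjusted p = 1.31e-05) and the higher at E16.5 (1.73 ± 0.16, adjusted p = 3.87e-08). Sema3a, a repellent received by neuropilin 1, followed the same course, from 186 ± 20.3 to 77.3 ± 18.5 CPM at E13.5 (-1.27 ± 0.18, adjusted p = 5.31e-05) and from 10.44 ± 2.41 to 52.2 ± 6.81 CPM at E16.5 (2.32 ± 0.17, adjusted p = 2.47e-09). Sema3c stood at 311 ± 59.4 and 131 ± 10.3 CPM at E13.5 (-1.25 ± 0.19, adjusted p = 7.96e-05) and at 87.3 ± 5.90 and 163 ± 48.2 CPM at E16.5 (0.90 ± 0.17, adjusted p = 0.000192). Sema3f, a ligand of neuropilin 2, fell at E13.5 from 319 ± 62.03 to 190.1 ± 61.8 CPM (-0.75 ± 0.20, adjusted p = 0.0132). That call was lost without stabilized replicate 3 or 4 (adjusted p 0.0518 to 0.0533). At E16.5 Sema3f rose (0.70 ± 0.18, adjusted p = 0.00334). The interaction passed for Sema3a (3.59 ± 0.25), Sema3c (2.16 ± 0.25), Sema3e (3.07 ± 0.23) and Sema3f (1.45 ± 0.27).

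**Figure D4:**
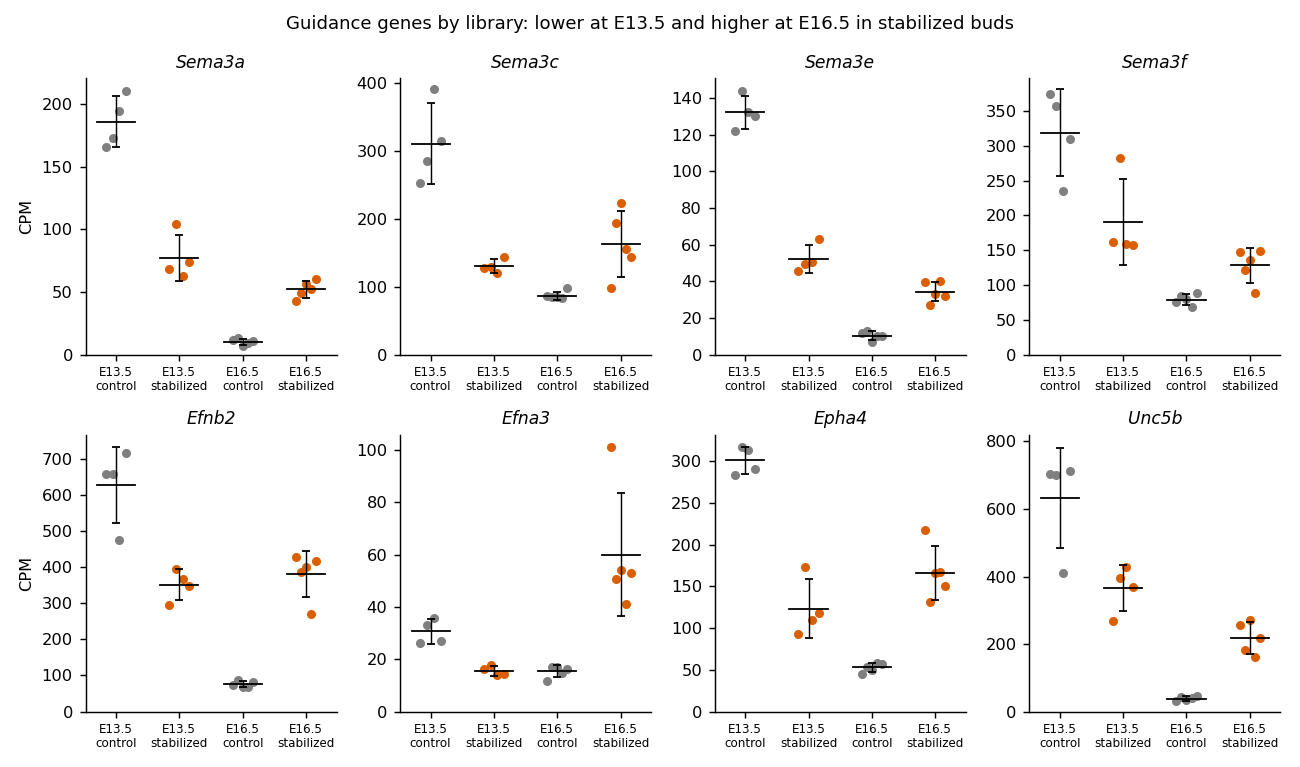
CPM of 8 guidance genes in each library (points), with the mean (line) and SD (bars) of each group, for genes that fell at E13.5 and rose at E16.5 in stabilized buds. The group means run from high in E13.5 controls to low in E16.5 controls with both stabilized groups between them, except for Efna3, where E16.5 stabilized buds have the highest mean (60.0 CPM).

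Sema3b, a secreted ligand of neuropilins, went the opposite way. It had 3.96, 3.27, 2.94 and 2.26 CPM in E13.5 controls, with 14.9, 10.5, 11.7 and 9.98 CPM in E13.5 stabilized buds. At E16.5 it had 489, 518, 561, 463 and 518 CPM in controls and 15.5, 82.3, 23.7, 46.5 and 86.2 CPM in stabilized buds. The groups did not overlap at either stage, and the E16.5 controls were far above every other library. Sema3b rose at E13.5 (1.92 ± 0.42, adjusted p = 0.00447), fell at E16.5 (-3.33 ± 0.38, adjusted p = 2.61e-06) and had a negative interaction (-5.24 ± 0.57, adjusted p = 3.09e-06). Sema3g, at low counts, had the same signs. It had 0 counts in E13.5 controls and 28 counts in stabilized buds, at least 10.3-fold higher (floor of 3 counts over the group, adjusted p = 0.0183). The E13.5 stabilized libraries had 0.376, 0.0332, 0.554 and 0 CPM, so the Sema3g groups overlapped at that stage. With replicate number as a block in the fit, this call was lost (adjusted p = 0.0754). In E16.5 controls Sema3g had 2.15 ± 0.707 CPM, against 0.218 ± 0.197 CPM in stabilized buds (-3.27 ± 1.12, adjusted p = 0.027). The Sema3g calls were lost at E13.5 without stabilized replicate 3 (adjusted p = 0.0505) and at E16.5 without control replicate 2 or 3 and also without stabilized replicate 1, 3 or 4 (adjusted p 0.051 to 0.0576).

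Among the receptors of these ligands, Nrp2, which encodes neuropilin 2, was far higher in stabilized buds. It had 1.01, 0.238, 3.24 and 2.14 CPM in E13.5 controls, with 182, 74.6, 266 and 244 CPM in E13.5 stabilized buds. In E16.5 controls it had 3.85, 1.94, 1.43, 0.235 and 0.857 CPM, and in E16.5 stabilized buds 437, 380.4, 434, 286 and 411 CPM. Every stabilized library was far above every control, and E13.5 stabilized replicate 2 was the lowest of its group. The log2 fold change was 6.87 ± 0.78, adjusted p = 1.75e-05 at E13.5 and 7.85 ± 0.73, adjusted p = 4.64e-07 at E16.5, or 8.45 without E16.5 control replicate 1 and 7.69 at E13.5 without both libraries that stood apart. The 2 effects did not differ past the threshold (0.99 ± 0.87, adjusted p = 0.429). Nrp1, which encodes the main receptor of Sema3a, had 39.3 ± 11.6 CPM in E13.5 controls, with 23.8 ± 3.87 CPM in E13.5 stabilized buds (-0.72 ± 0.25, adjusted p = 0.0643), which passed without control replicate 1 (adjusted p = 0.0474). At E16.5 it rose from 4.93 ± 0.959 to 24.2 ± 8.04 CPM (2.30 ± 0.24, adjusted p = 2.75e-07). Per kilobase, Nrp1 (4.02) was above Nrp2 (0.140) in E13.5 controls, and Nrp2 (32.9) was above Nrp1 (2.48) in E16.5 stabilized buds.

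All 4 class A plexin genes, which encode the signalling partners of neuropilins, rose at E16.5, while at E13.5 Plxna4 rose, Plxna3 fell, and Plxna1 and Plxna2 did not pass. Plxna4 had 7.04, 4.34, 18.2 and 10.2 CPM in E13.5 controls, 44.9, 21.8, 53.4 and 73.2 in E13.5 stabilized buds, 1.63, 2.07, 1.32, 1.31 and 0.393 in E16.5 controls and 21.2, 32.6, 31.9, 21.2 and 23.5 in E16.5 stabilized buds. Stabilized libraries were above controls at both stages, and E13.5 control replicate 3 was the highest control. The change was 2.28 ± 0.45, adjusted p = 0.00157 at E13.5, or 2.99 without both libraries that stood apart, and 4.27 ± 0.45, adjusted p = 5.83e-07 at E16.5. Plxna2 had 76.6, 93.03, 56.9 and 101 CPM in E13.5 controls, 79.2, 144, 110.3 and 126 in E13.5 stabilized buds, 23.2, 26.8, 19.5, 27.7 and 26.8 in E16.5 controls and 419, 270.4, 291, 292 and 307 in E16.5 stabilized buds. Its groups overlapped at E13.5 (0.49 ± 0.19, adjusted p = 0.1; 0.0321 without stabilized replicate 1) and were far apart at E16.5 (3.67 ± 0.19, adjusted p = 2.07e-11), where replicate 1 was the highest. Plxna3 fell at E13.5 (-0.85 ± 0.16, adjusted p = 0.00087) and rose at E16.5 (0.59 ± 0.14, adjusted p = 0.0024). Plxna1, with antisense transcript Gm26811 over 10.7% of its exon length, rose at E16.5 (0.43 ± 0.13, adjusted p = 0.0117). The interaction passed for Plxna2 (3.18 ± 0.26), Plxna3 (1.44 ± 0.22) and Plxna4 (1.99 ± 0.59). Without both libraries that stood apart, that of Plxna4 did not (1.28, adjusted p = 0.0558).

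Plxnd1, the receptor of Sema3e, fell at both stages. It had 283, 261, 121 and 224 CPM in E13.5 controls, with 29.6, 70.9, 33.02 and 24.5 CPM in E13.5 stabilized buds. It had 35.9, 38.1, 32.2, 28.9 and 35.1 CPM in E16.5 controls and 13.7, 26.8, 24.2, 14.3 and 20.6 in E16.5 stabilized buds. Groups did not overlap at either stage, although the lowest E13.5 control (replicate 3) and the highest stabilized library (replicate 2) approached each other. The change was -2.49 ± 0.32, adjusted p = 2.84e-05 at E13.5, or -3.14 without both of these, and -0.77 ± 0.28, adjusted p = 0.0334 at E16.5. The E16.5 call was lost without control replicate 1, 2 or 5 and also without stabilized replicate 1, 4 or 5 (adjusted p 0.0514 to 0.0805). The E13.5 effect was the more negative (interaction 1.72 ± 0.42, adjusted p = 0.00397).

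Plxnb2, a class B plexin that binds class 4 semaphorins and had the highest mean level per kilobase of the plexins, had 301, 309, 217 and 264 CPM in E13.5 controls, 299, 327, 387 and 381 in E13.5 stabilized buds, 363, 373, 373, 323 and 355 in E16.5 controls and 647, 480.2, 555, 351 and 572 in E16.5 stabilized buds. Groups overlapped at both stages, through E16.5 stabilized replicate 4 at the later one. Plxnb2 did not pass at E13.5 (0.35 ± 0.16, adjusted p = 0.159) and rose at E16.5 (0.54 ± 0.14, adjusted p = 0.00437). Plxnb1, the receptor of Sema4d, did not pass at either stage in the main fit (0.28 ± 0.17 and 0.27 ± 0.15, adjusted p = 0.315 and 0.151). At E16.5 it passed without stabilized replicate 4 (adjusted p = 0.0249). Plxnc1, the receptor of Sema7a, rose at E16.5 (0.52 ± 0.19, adjusted p = 0.0314), a call lost without control replicate 1 or 4 and also without stabilized replicate 3 or 5 (adjusted p 0.053 to 0.0973). The 9 plexin genes summed to 149.5 ± 30.2, 139.5 ± 11.5, 105 ± 4.64 and 159 ± 26.7 CPM per kb in E13.5 control, E13.5 stabilized, E16.5 control and E16.5 stabilized buds (SD, n = 4, 4, 5 and 5).

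Of the 13 other semaphorin genes, which encode membrane-bound ligands, 0 rose and 4 fell at E13.5 in edgeR, and 5 rose and 6 fell at E16.5. At E13.5, 1 was higher at an unadjusted p under 0.05, and 1 was higher in DESeq2. Sema6a, which encodes a ligand of class A plexins, had 442, 468, 263 and 372 CPM in E13.5 controls, 238, 290.2, 225 and 191 in E13.5 stabilized buds, 546, 769, 664, 589 and 639.8 in E16.5 controls and 123, 194, 155, 178 and 205 in E16.5 stabilized buds. The E16.5 control group was the highest and the E16.5 stabilized group the lowest, and control and stabilized libraries overlapped at E13.5 and not at E16.5. It fell at E13.5 (-0.71 ± 0.19, adjusted p = 0.012; 0.0503 without stabilized replicate 4) and more so at E16.5 (-1.91 ± 0.17, adjusted p = 3.63e-08; interaction -1.20 ± 0.25, adjusted p = 0.000968). Sema6d had 31.9, 27.7, 22.1 and 18.2 CPM in E13.5 controls, 37.1, 29.9, 41.6 and 39.2 in E13.5 stabilized buds, 105, 117, 99.5, 96.3 and 97.03 in E16.5 controls and 29.7, 61.6, 43.05, 45.8 and 43.2 in E16.5 stabilized buds. Its E16.5 groups were apart and its E13.5 groups overlapped. The change was 0.56 ± 0.19, adjusted p = 0.0522 at E13.5 and -1.20 ± 0.17, adjusted p = 1.17e-05 at E16.5. The interaction was -1.77 ± 0.26, adjusted p = 2.7e-05. The E13.5 difference passed in DESeq2 (adjusted p = 0.0338). In edgeR it passed without control replicate 1 (adjusted p = 0.0242) or stabilized replicate 2 (adjusted p = 0.0322).

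Sema5b had 6.89, 7.20, 0.669 and 5.66 CPM in E13.5 controls, 1.16, 2.62, 2.43 and 2.06 in E13.5 stabilized buds, 10.97, 10.1, 14.1, 13.03 and 11.7 in E16.5 controls and 1.95, 1.67, 2.38, 2.43 and 3.94 in E16.5 stabilized buds. Control replicate 3 alone of the E13.5 controls was below the stabilized libraries. The E13.5 difference did not pass (-1.30 ± 0.49, adjusted p = 0.0837) but did without that library (adjusted p = 0.00159), and at E16.5 Sema5b fell (-2.27 ± 0.45, adjusted p = 0.000394). Sema4f had 3.34, 4.73, 0.936 and 2.07 CPM in E13.5 controls, 3.80, 0.630, 2.32 and 1.70 in E13.5 stabilized buds, 5.34, 5.88, 6.54, 5.66 and 5.46 in E16.5 controls and 0.497, 2.02, 1.09, 0.821 and 1.66 in E16.5 stabilized buds. It overlapped at E13.5 (-0.39 ± 0.56, adjusted p = 0.752) and fell at E16.5 (-2.24 ± 0.52, adjusted p = 0.00178). Sema7a, the ligand held to the membrane by a lipid anchor, had 0.503, 0, 0 and 0.582 CPM in E13.5 controls, 1.33, 0, 0.589 and 0.0981 in E13.5 stabilized buds, 2.04, 0.0323, 0.226, 0.101 and 0 in E16.5 controls and 16.03, 9.69, 6.57, 6.32 and 17.96 in E16.5 stabilized buds. E16.5 stabilized buds were above all other libraries, a rise of 4.53 ± 1.36, adjusted p = 0.013, or 6.94 without E16.5 control replicate 1, the highest of its group.

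Several of the remaining semaphorin genes moved in opposite directions at the 2 stages. Sema4g rose at E16.5 from 13.6 ± 1.62 to 59.7 ± 9.05 CPM (2.13 ± 0.21, adjusted p = 1.54e-07) and fell at E13.5 (-0.69 ± 0.23, adjusted p = 0.0493). Sema4b did likewise (1.31 ± 0.16, adjusted p = 2.42e-06 at E16.5 and -0.58 ± 0.18, adjusted p = 0.0322 at E13.5). The E13.5 calls of Sema4b and Sema4g were lost without control replicate 2 and also without stabilized replicate 1, 3 or 4, that of Sema4b also without control replicate 4 and also without stabilized replicate 2, and that of Sema4g also without control replicate 1 (adjusted p 0.0508 to 0.124 for Sema4b and 0.102 to 0.192 for Sema4g). Sema5a fell at E13.5 (-0.53 ± 0.15, adjusted p = 0.0193; 0.055 to 0.0742 without control replicate 4 and also without stabilized replicate 1) and rose at E16.5 (0.47 ± 0.13, adjusted p = 0.00797). Sema4d, the ligand of plexin B1, fell at E16.5 (-0.76 ± 0.13, adjusted p = 0.000122), as did Sema4c (-0.55 ± 0.15, adjusted p = 0.00705), which has an antisense transcript over 7.27% of its exon length. Sema6c rose at E16.5 (0.69 ± 0.26, adjusted p = 0.0392), a call lost without control replicate 1 or 2 and also without stabilized replicate 2, 3 or 5 (adjusted p 0.0568 to 0.0949). Sema4a and Sema6b did not pass at either stage in the main fit. The interaction passed for Sema4b (1.896 ± 0.24), Sema4g (2.82 ± 0.31), Sema5a (1.00 ± 0.20) and Sema4d (-0.80 ± 0.20).

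In the Eph system, 3 of 9 genes of A-class receptors (Epha4, Epha6 and Epha7) fell and 0 rose at E13.5 in edgeR (5.29% and 9.58% of all genes did), and 1 fell and 4 rose at E16.5 (19.4% and 22.2% of all genes). At E13.5 the other 6 did not pass, and of these Epha1, Epha2 and Epha10 had the higher mean in stabilized buds. None was higher at E13.5 at an unadjusted p under 0.05 either, and 0 were in DESeq2. The summed level of the 9 genes, led by a few of them, was 125 ± 10.3 CPM per kb in E13.5 controls, 56.6 ± 9.16 in E13.5 stabilized buds, 34.4 ± 2.49 in E16.5 controls and 67.9 ± 15.5 in E16.5 stabilized buds. Epha7 (52.8 CPM per kb) and Epha4 (37.4) led in E13.5 controls, and Epha1 (25.5) and Epha4 (20.7) in E16.5 stabilized buds.

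Epha4, a receptor that binds ephrins of both the A and the B class, had 284, 317, 313 and 291 CPM in E13.5 controls, 93.2, 173, 109 and 118 in E13.5 stabilized buds, 45.2, 53.98, 49.99, 58.5 and 56.5 in E16.5 controls and 218, 131, 166, 168 and 150.2 in E16.5 stabilized buds. Groups did not overlap at either stage, with stabilized libraries lower at E13.5 and higher at E16.5. The change was -1.29 ± 0.17, adjusted p = 2e-05 at E13.5 and 1.66 ± 0.15, adjusted p = 5.77e-08 at E16.5, and the interaction 2.94 ± 0.23, adjusted p = 2.34e-08. Epha7 had 554, 521, 427 and 587 CPM in E13.5 controls, 94.9, 178, 103 and 112 in E13.5 stabilized buds, 58.8, 77.5, 62.2, 71.7 and 63.97 in E16.5 controls and 21.4, 41.2, 28.7, 54.7 and 34.3 in E16.5 stabilized buds. All E13.5 controls were above every other library. Epha7 fell at E13.5 (-2.10 ± 0.24, adjusted p = 3.94e-06) and, by less, at E16.5 (-0.89 ± 0.21, adjusted p = 0.00183; interaction 1.21 ± 0.31, adjusted p = 0.00538).

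Epha6 was highest in E13.5 controls. It had 45.8, 50.2, 38.96 and 45.4 CPM in E13.5 controls, 0.718, 4.18, 0.520 and 0.458 in E13.5 stabilized buds, 0, 0.129, 0.338, 0.0335 and 0.250 in E16.5 controls and 0.0765, 0.631, 0.0681, 0.286 and 0.475 in E16.5 stabilized buds. Stabilized replicate 2 was the highest outside the E13.5 controls. The fall at E13.5 was -4.93 ± 0.82, adjusted p = 0.00042, or -6.31 without that replicate. At E16.5 the groups overlapped (1.09 ± 0.85, adjusted p = 0.336), and the interaction was 6.02 ± 1.14, adjusted p = 0.000647, or 7.39 without that replicate. Epha3, a receptor of A-class ephrins, had 11.1, 15.9, 35.9 and 29.5 CPM in E13.5 controls, 9.75, 25.8, 12.4 and 13.7 in E13.5 stabilized buds, 1.52, 1.55, 0.451, 2.38 and 0.428 in E16.5 controls and 1.95, 9.94, 3.81, 3.96 and 3.73 in E16.5 stabilized buds. Groups overlapped at both stages, with E16.5 stabilized replicate 2 the highest of its group and replicate 1 within the controls. Epha3 did not pass at E13.5 (-0.58 ± 0.53, adjusted p = 0.569) and rose at E16.5 (1.88 ± 0.51, adjusted p = 0.00599; interaction 2.46 ± 0.74, adjusted p = 0.0153).

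Epha1, whose exons overlap those of Zyx on the opposite strand over 6.01% of their length, rose at E16.5 from 23.8 ± 2.27 to 100.1 ± 32.6 CPM (2.07 ± 0.18, adjusted p = 1.76e-08) and did not pass at E13.5 (0.33 ± 0.19, adjusted p = 0.295; interaction 1.75 ± 0.26, adjusted p = 3.14e-05). Epha8 had 0 counts in the 5 E16.5 controls and 249 counts in the 5 stabilized libraries, at least 89.1-fold higher against a floor of 3 counts over the group (adjusted p = 0.00357). At E13.5 it lay at or under 1.61 CPM in every library and did not pass (adjusted p = 0.943), and the interaction passed (adjusted p = 0.0139). Epha10, which lacks kinase activity, had 1 count in E16.5 controls and 35 in stabilized buds, a ratio of 36.2 with a 95% interval of 6.09 to 1471 that covers counting error only, and it did not pass (adjusted p = 0.0703). Epha2 (0.35 ± 0.21 and 0.19 ± 0.18) and Epha5 (-0.69 ± 0.47 and 0.23 ± 0.42) did not pass at either stage.

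Ephrins, the ligands, changed in part. At E13.5, 3 of 8 fell and 0 rose in edgeR (0 were higher at an unadjusted p under 0.05, and 0 in DESeq2), and at E16.5, 4 rose and 2 fell. Efnb2, a B-class ephrin that signals in both directions across a contact, had 657, 659, 475 and 717 CPM in E13.5 controls, 295, 396, 368 and 348 in E13.5 stabilized buds, 74.6, 86.3, 69.1, 67.9 and 81.6 in E16.5 controls and 428, 387, 399.9, 270.2 and 419 in E16.5 stabilized buds. Groups did not overlap, and both stabilized groups lay between the higher E13.5 and the lower E16.5 controls, with E16.5 replicate 4 the lowest stabilized library. The change was -0.83 ± 0.15, adjusted p = 0.000747 at E13.5 and 2.33 ± 0.14, adjusted p = 2.39e-10 at E16.5, and the interaction 3.16 ± 0.21, adjusted p = 3.01e-09. Efna3, an A-class ephrin with an antisense transcript over 14.1% of its exon length, went from 30.6 ± 4.71 to 15.5 ± 1.77 CPM at E13.5 (-0.98 ± 0.22, adjusted p = 0.00428) and from 15.4 ± 2.34 to 59.96 ± 23.5 CPM at E16.5 (1.96 ± 0.20, adjusted p = 2.46e-07).

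Efna4, the A-class ephrin with the highest mean level per kilobase, had 61.6, 48.7, 66.9 and 63.9 CPM in E13.5 controls, 47.8, 47.7, 50.8 and 42.6 in E13.5 stabilized buds, 48.3, 48.6, 52.7, 48.01 and 40.2 in E16.5 controls and 50.4, 44.7, 41.2, 38.9 and 47.2 in E16.5 stabilized buds. Groups overlapped at both stages, and neither difference passed (-0.35 ± 0.13, adjusted p = 0.0694 and -0.10 ± 0.11, adjusted p = 0.526), although that at E13.5 did without control replicate 2 (adjusted p = 0.0278). An antisense transcript covers 10.5% of its exon length. At E16.5 Efnb1 (1.43 ± 0.17, adjusted p = 1.48e-06) and Efna1 (1.83 ± 0.22, adjusted p = 2.06e-06) rose, and Efna2 fell (-0.52 ± 0.14, adjusted p = 0.00566). Efnb3 fell at E13.5 (-0.73 ± 0.23, adjusted p = 0.0368) and at E16.5 (-0.98 ± 0.21, adjusted p = 0.000745), and its E13.5 call was lost without control replicate 1 or 2 and also without stabilized replicate 1, 3 or 4 (adjusted p 0.09 to 0.13). Efna5 did not pass at either stage. The interaction passed for Efna1 (1.61 ± 0.33), Efna2 (-0.56 ± 0.21, adjusted p = 0.0486), Efna3 (2.94 ± 0.30) and Efnb1 (1.85 ± 0.25). That of Efna2 was lost on leaving out any 1 of 14 libraries (adjusted p 0.0501 to 0.128).

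Of 5 EphB genes, 2 rose and 1 fell at E13.5 (9.58% and 5.29% of all genes did), and 1 rose and 2 fell at E16.5 (22.2% and 19.4%), so 1 of 5 is close to the share of all genes. Their summed level was 77.1 ± 18.6 CPM per kb in E13.5 controls, 80.0 ± 5.05 in E13.5 stabilized buds, 74.0 ± 5.65 in E16.5 controls and 67.8 ± 11.2 in E16.5 stabilized buds. Ephb1 had 0.0887, 0, 0 and 0.0324 CPM in E13.5 controls, 4 counts in all, and 48.7, 19.5, 50.3 and 47.99 CPM in E13.5 stabilized buds. It had 6.25, 7.11, 6.50, 5.83 and 5.28 CPM in E16.5 controls and 66.4, 70.2, 74.2, 64.4 and 94.7 in E16.5 stabilized buds. Every stabilized library was above every control, and E13.5 stabilized replicate 2 was the lowest of its group. Ephb1 rose at E13.5 (10.21 ± 0.47, adjusted p = 7.9e-11; 11.46 without control replicate 1, the highest of its group) and at E16.5 (3.58 ± 0.26, adjusted p = 2.5e-09). The interaction was negative (-6.63 ± 0.54, adjusted p = 4.46e-08; -7.88 without that library). The sizes of the E13.5 and interaction values rest on the 4 counts in E13.5 controls. Leaving out control replicate 1 moved both by more than their SE. Ephb1 was higher in E16.5 than in E13.5 controls.

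Ephb4, the receptor of ephrin B2 and the B-class receptor with the highest level per kilobase, had 272, 265, 149 and 264 CPM in E13.5 controls, 186, 235, 222 and 200.4 in E13.5 stabilized buds, 188, 196, 208, 172 and 213 in E16.5 controls and 99.3, 156, 184, 98.5 and 140.1 in E16.5 stabilized buds. Control replicate 3 was far below the other E13.5 controls, and the groups overlapped at both stages. Ephb4 did not pass at E13.5 (-0.17 ± 0.20, adjusted p = 0.673) and fell at E16.5 (-0.53 ± 0.17, adjusted p = 0.0203; 0.0526 without stabilized replicate 1). Ephb3 rose at E13.5 (0.53 ± 0.16, adjusted p = 0.0282), a call lost without control replicate 3 or 4 and also without stabilized replicate 2 or 4 (adjusted p 0.0658 to 0.0786), and fell at E16.5 (-0.49 ± 0.14, adjusted p = 0.00923; interaction -1.02 ± 0.21, adjusted p = 0.00105). Ephb2 fell at E13.5 (-0.52 ± 0.17, adjusted p = 0.0496), a call lost without control replicate 1, 2 or 4 and also without stabilized replicate 1, 3 or 4 (adjusted p 0.0884 to 0.154). Ephb6, which lacks kinase activity, did not pass at either stage in the main fit (0.33 ± 0.32 and 0.49 ± 0.29).

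**Figure D5:**
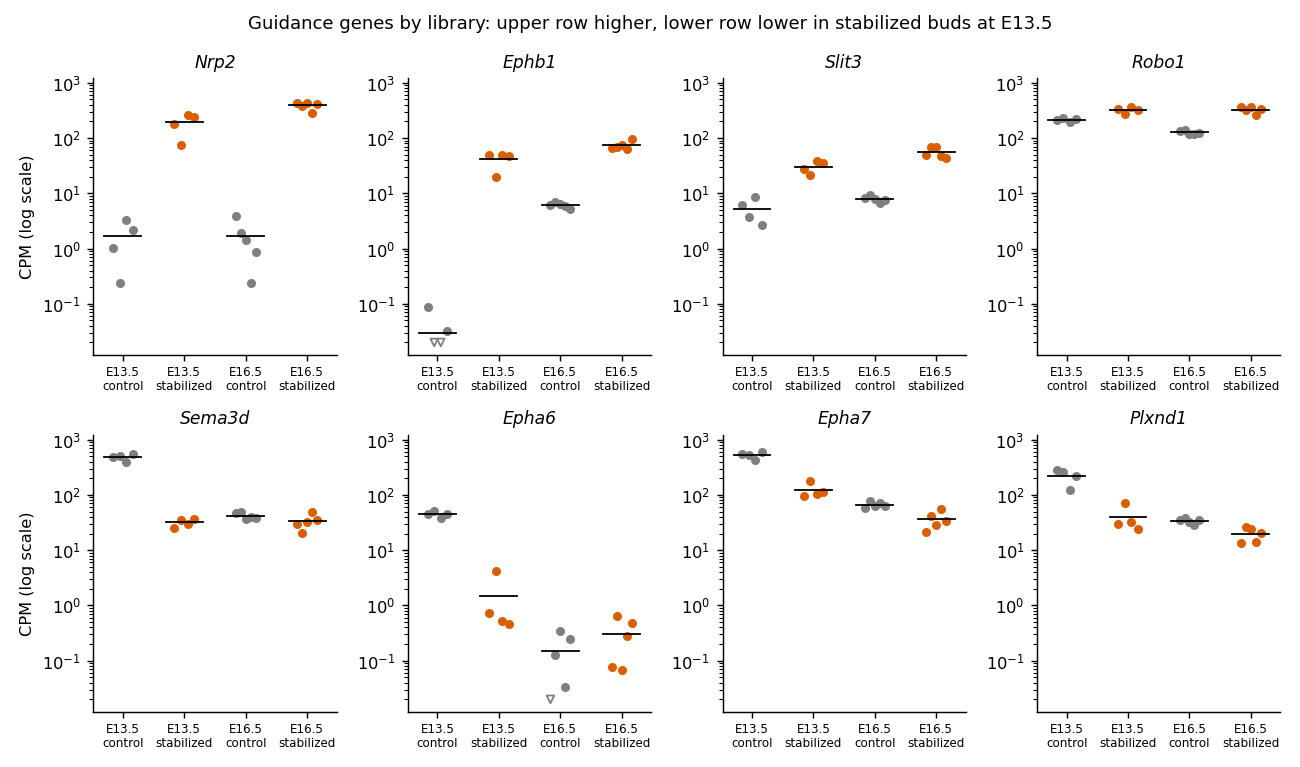
CPM (log scale) of 8 guidance genes in each library, with the group mean as a line and libraries at 0 as open triangles on the lower edge; the upper row shows genes that rose and the lower row genes that fell in E13.5 stabilized buds. Nrp2 and Ephb1 are far above controls at both stages, and Sema3d and Epha6 are high in E13.5 controls only.

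At E13.5, 2 of 3 Slit genes and 1 of 2 tested Robo genes rose in stabilized buds (9.58% of all genes did), and at E16.5 all 3 and both rose (22.2% of all genes). None fell in edgeR at E13.5, where 0 were lower at an unadjusted p under 0.05 and 0 in DESeq2. The Slit genes summed to 2.19 ± 0.583, 7.79 ± 1.22, 1.69 ± 0.165 and 10.6 ± 2.00 CPM per kb in E13.5 control, E13.5 stabilized, E16.5 control and E16.5 stabilized buds. Slit3 had 6.09, 3.69, 8.56 and 2.62 CPM in E13.5 controls, 27.6, 21.4, 38.3 and 34.7 in E13.5 stabilized buds, 8.14, 9.31, 8.04, 6.57 and 7.67 in E16.5 controls and 50.3, 69.3, 68.7, 46.7 and 44.4 in E16.5 stabilized buds. No stabilized library overlapped the controls of its stage. The rise was 2.54 ± 0.29, adjusted p = 3.89e-06 at E13.5 and 2.81 ± 0.26, adjusted p = 6.37e-08 at E16.5, with no difference past the threshold between them (0.27 ± 0.37, adjusted p = 0.63). Slit1, at lower counts, had 0, 0.625, 0.769 and 0 CPM in E13.5 controls, 5.33, 7.23, 5.44 and 3.96 in E13.5 stabilized buds and 2.98, 1.39, 3.27, 1.999 and 2.04 CPM in E16.5 stabilized buds, while the 5 E16.5 controls held 0 counts. Slit1 rose at E13.5 (3.96 ± 1.10, adjusted p = 0.023; 4.69 without control replicate 3) and was at least 117-fold higher at E16.5 (adjusted p = 9.64e-05). Its interaction passed (adjusted p = 0.0276) but not without E13.5 control replicate 2 (adjusted p = 0.0506). Slit2 had 32.3 ± 5.42 and 46.8 ± 7.01 CPM at E13.5 (0.53 ± 0.19, adjusted p = 0.072). That difference passed without stabilized replicate 2 (adjusted p = 0.0494). At E16.5 Slit2 rose from 9.68 ± 2.64 to 24.7 ± 1.94 CPM (1.35 ± 0.18, adjusted p = 4.21e-06). The interaction was 0.82 ± 0.26, adjusted p = 0.0201.

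Robo1, the most abundant Robo per kilobase, had 210.0, 230.3, 197 and 217 CPM in E13.5 controls, with 335, 271, 368 and 321 CPM in E13.5 stabilized buds. It had 132, 140.0, 118, 118 and 125 CPM in E16.5 controls and 366, 321, 365, 258 and 333 in E16.5 stabilized buds. Stabilized libraries were higher at both stages without overlap, and the spread within groups was narrow. The rise was 0.60 ± 0.12, adjusted p = 0.00176 at E13.5 and 1.38 ± 0.11, adjusted p = 9.11e-09 at E16.5, the larger of these by 0.78 ± 0.16, adjusted p = 0.00114. Robo2 did not pass at E13.5 (0.20 ± 0.21, adjusted p = 0.629) and rose at E16.5 (0.70 ± 0.19, adjusted p = 0.00448). Robo4, known from endothelium, held 50 counts in E16.5 controls, 6 in E16.5 stabilized buds, 1 in E13.5 stabilized buds and 0 in E13.5 controls, and Robo3 held 12 counts in E16.5 controls, 1 in E16.5 stabilized buds, 3 in E13.5 controls and 0 in E13.5 stabilized buds. Both Robo genes were too low to test, and their summed counts were highest in the E16.5 controls. All Robo3 counts of that group came from replicate 5, and Robo4 was at 0 in its replicates 4 and 5.

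Unc5b dominated the Unc5 receptors, with 101 CPM per kb in E13.5 controls against 1.94 for Unc5d, the next. It had 705, 702, 409 and 713 CPM in E13.5 controls, 269, 396, 427 and 369 in E13.5 stabilized buds, 31.3, 43.8, 33.6, 39.9 and 44.98 in E16.5 controls and 256, 182, 272, 162 and 217 in E16.5 stabilized buds. E13.5 control replicate 3 lay among the stabilized libraries, and the E16.5 controls were far below all others. Unc5b fell at E13.5 (-0.79 ± 0.20, adjusted p = 0.00962) and rose at E16.5 (2.49 ± 0.19, adjusted p = 3.6e-09). The interaction was 3.28 ± 0.27, adjusted p = 5.27e-08. With replicate number as a block in the fit, the E13.5 call was lost (adjusted p = 0.0514). Unc5c had 12.6, 8.27, 16.2 and 15.2 CPM in E13.5 controls, 28.999, 9.09, 37.5 and 41.4 in E13.5 stabilized buds, 3.39, 5.04, 4.06, 1.47 and 1.71 in E16.5 controls and 54.9, 87.1, 100.3, 115 and 71.5 in E16.5 stabilized buds. E13.5 stabilized replicate 2 lay among the controls, and the E13.5 difference did not pass (1.16 ± 0.42, adjusted p = 0.0752) but did without that library (adjusted p = 0.0071). At E16.5 Unc5c rose (4.77 ± 0.44, adjusted p = 1.59e-07; interaction 3.61 ± 0.58, adjusted p = 0.000135).

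Unc5d had 17.8, 12.3, 15.7 and 25.9 CPM in E13.5 controls, 0.547, 7.0003, 2.81 and 3.01 in E13.5 stabilized buds, 0.263, 1.91, 0.752, 0.972 and 2.50 in E16.5 controls and 0.804, 1.01, 0.375, 0.678 and 1.53 in E16.5 stabilized buds. The E13.5 controls were above all other libraries. Unc5d fell at E13.5 (-2.42 ± 0.65, adjusted p = 0.015; -3.07 without stabilized replicate 2, and an adjusted p of 0.05 without stabilized replicate 3) and did not pass at E16.5 (-0.54 ± 0.58, adjusted p = 0.492). Unc5a did not pass at either stage in the main fit (1.27 ± 1.20 and 2.52 ± 1.13). At E16.5 it passed in DESeq2 (adjusted p = 0.0244) and, in edgeR, without stabilized replicate 4 (adjusted p = 0.0496).

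Of the netrins, secreted ligands related to laminins, 0 of 3 tested passed at E13.5 in edgeR, and 2 rose and 1 fell at E16.5. At E13.5, 1 passed at an unadjusted p under 0.05, and 1, Ntn1, passed in DESeq2 (adjusted p = 0.0404). Ntn1 had 6.74, 11.2, 11.6 and 13.1 CPM in E13.5 controls, 3.25, 8.43, 2.81 and 4.65 in E13.5 stabilized buds, 16.1, 27.7, 10.04, 12.9 and 11.4 in E16.5 controls and 11.6, 6.47, 5.86, 3.93 and 3.36 in E16.5 stabilized buds. Groups overlapped at both stages. Ntn1 did not pass at E13.5 (-1.16 ± 0.42, adjusted p = 0.0719; 0.0164 without stabilized replicate 2) and fell at E16.5 (-1.32 ± 0.38, adjusted p = 0.00778). Ntn3, the netrin with the highest mean level per kilobase, had 51.1, 33.9, 23.1 and 46.3 CPM in E13.5 controls, 23.9, 38.4, 27.2 and 22.6 in E13.5 stabilized buds, 7.59, 9.92, 7.89, 6.50 and 9.21 in E16.5 controls and 11.2, 17.1, 23.1, 11.2 and 15.5 in E16.5 stabilized buds. It overlapped at E13.5 (-0.46 ± 0.26, adjusted p = 0.28) and rose at E16.5 (0.93 ± 0.24, adjusted p = 0.00351; interaction 1.39 ± 0.35, adjusted p = 0.00464). Ntn4, a netrin of basement membranes, rose at E16.5 from 1.51 ± 0.488 to 13.7 ± 1.67 CPM (3.18 ± 0.32, adjusted p = 1.49e-07) and did not pass at E13.5 (-0.17 ± 0.32, adjusted p = 0.83; interaction 3.35 ± 0.45, adjusted p = 1.14e-05). Ntn5, at 18 counts in all, shares 23.4% of its exon length with Sec1.

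Many guidance genes were lower in E16.5 than in E13.5 controls. In edgeR, 48 of 64 passed (75%, against 47.5% of all genes), 12 higher (24.9% of all genes) and 36 lower (22.6% of all genes), with a median of -0.99 against -0.03. These control libraries also serve in the genotype comparisons, so these values are no separate support for them. All 3 ephrin B genes, 7 of 9 EphA genes, all 4 class A plexin genes, 3 of 4 Unc5 genes and 19 of 30 receptor genes fell. As E16.5 minus E13.5, Epha6 changed by -8.24 ± 0.90, adjusted p = 1.1e-06, and Epha3 by -4.18 ± 0.56, adjusted p = 7.04e-06. Sema3a changed by -4.15 ± 0.19, adjusted p = 6.93e-12, and Unc5b by -4.03 ± 0.21, adjusted p = 1.85e-11. Among the 12 that rose were Ephb1 (7.46 ± 0.46, adjusted p = 1.99e-10; 8.71 without E13.5 control replicate 1), Sema3b (7.35 ± 0.51, adjusted p = 7.51e-09) and Sema6d (2.04 ± 0.19, adjusted p = 4.96e-08), and Sema3g was at least 92.0-fold higher (adjusted p = 0.000391). Slit1 was at least 17.4-fold lower and Epha8 at least 33.6-fold lower in the later controls, in which both held 0 counts. These bounds rest on group means, and the groups overlapped. In E13.5 controls Epha8 had 1.42, 0, 1.27 and 0 CPM, and Slit1 was at 0 in replicates 1 and 4. The size of the Ephb1 rise rests on 4 counts in E13.5 controls. Slit3 did not pass (0.60 ± 0.27, adjusted p = 0.0728), but did without E13.5 control replicate 3 (0.94, adjusted p = 0.00482). The call of Efna4 was lost without E13.5 control replicate 1, 3 or 4 or E16.5 control replicate 5. That of Efnb1 was lost without E13.5 control replicate 1, 2 or 4 or E16.5 control replicate 1, 2, 3 or 4 (adjusted p 0.0537 to 0.117). Ephb6 lost its call without E13.5 control replicate 1, 3 or 4 or E16.5 control replicate 2, 3 or 5 (0.0519 to 0.105), Plxnb2 without E13.5 control replicate 3 or 4 or E16.5 control replicate 1, 2, 3 or 5 (0.0593 to 0.119), and Sema5b without E13.5 control replicate 4 or E16.5 control replicate 3, 4 or 5 (0.0528 to 0.0698). With the deposited scaling, Efna3, Ephb6, Plxnb2, Sema4a, Sema4d, Sema5b, Sema6a and Unc5c did not pass (0.0701 to 0.845).

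In stabilized buds, 34 of 64 passed between the stages (53.1%, against 28% of all genes), 16 higher (as were 2852 of the 17269 genes) and 18 lower (1990 genes, or 11.5%), with a median of -0.11 against 0.00. Without E13.5 stabilized replicate 2, 13 rose and 12 fell. Unc5c rose (1.55 ± 0.41, adjusted p = 0.0084), as did Plxna2 (1.46 ± 0.19, adjusted p = 1.04e-05) and Sema3b (2.11 ± 0.40, adjusted p = 0.000764), while Epha7 fell (-1.76 ± 0.22, adjusted p = 8.17e-06). Sema3d (0.05 ± 0.19), Robo1 (0.02 ± 0.12), Efnb2 (0.12 ± 0.15) and Nrp1 (0.02 ± 0.24) did not pass. The calls of Epha3, Epha6, Ephb1, Ephb6, Ntn3, Plxnd1, Sema3a, Sema3f, Sema7a, Slit3 and Unc5d were lost without E13.5 stabilized replicate 2 (adjusted p 0.0565 to 0.392). Some of them were also lost on leaving out 1 other stabilized library: Epha6 without E16.5 replicate 1, 3 or 4, Ephb1 without E16.5 replicate 5, Sema3f without E16.5 replicate 2 or 4, and Unc5d without E16.5 replicate 3. Ephb6 lost its call without E13.5 replicate 3 or 4 or E16.5 replicate 1, and Sema7a without E13.5 replicate 3 or 4 or E16.5 replicate 1 or 5. With the deposited scaling, 11 calls were lost, that of Unc5c among them (0.0556 to 0.753).

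Other genes of the pathway were taken from lists written by their known roles, with earlier results of these data known. In all genes, 9.58% rose and 5.29% fell at E13.5, and 22.2% rose and 19.4% fell at E16.5. Of 31 tested further ligands, receptors and co-receptors outside the 11 families, 9 rose and 6 fell at E13.5 (median 0.33), and 17 rose and 3 fell at E16.5 (median 1.16). Flrt3, an adhesion protein that binds Unc5 receptors, fell at E13.5 (-1.16 ± 0.12, adjusted p = 1.42e-06) and rose at E16.5 (2.14 ± 0.11, adjusted p = 2.82e-11). Its relative Flrt2 rose at both stages (1.15 ± 0.18 and 2.78 ± 0.17, adjusted p = 0.000158 and 2.31e-10). At E13.5 the reelin receptor gene Vldlr rose (3.04 ± 0.21, adjusted p = 7.73e-09), and the neogenin ligand gene Rgmb (-2.47 ± 0.22, adjusted p = 2.47e-07) and the adhesion gene Alcam (-0.86 ± 0.12, adjusted p = 5.39e-05) fell. Nearer to the shares over all genes, of 52 cytoplasmic signalling genes of these receptors, 7 rose and 6 fell at E13.5 (median -0.06), and 19 rose and 14 fell at E16.5 (median 0.23). Among them, Crmp1, a mediator of semaphorin signals, rose at E13.5 (2.95, adjusted p = 3.81e-05), Enah, an actin regulator, rose at E16.5 (1.05, adjusted p = 6.84e-08), and Dpysl5, a relative of Crmp1, fell at E16.5 (-2.13, adjusted p = 1.69e-09).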

How the data were processed

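Estimated counts per gene (Salmon 0.99.0, mm10, per the submitters' processing notes, which also name FastQC 0.11.8, MultiQC, Trimmomatic 0.39 and DESeq2 3.15) were deposited by the authors as whole numbers for 18 libraries. No source used here gives the annotation release or the strand setting. The authors also deposited a normalized signal per gene, used here only as offsets in an alternative fit.

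Counts were tested with edgeR 4.0.16 in R 4.3.3 (filterByExpr with a minimum count of 10, TMM, robust quasi-likelihood fit, 1 mean per group over all 18 libraries), with Benjamini-Hochberg adjustment over 17269 genes. SE is the log2 fold change divided by the root of F. The script was tested on simulated counts. Exon lengths came from GENCODE on GRCm38. Alternatives were DESeq2 1.42.0, RLE scaling, no filter, a minimum count of 50, the compared groups alone, the deposited offsets, a replicate block and each library left out.

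The members and lists were chosen with earlier results of these data known. Values per library are given for the 6 genes per direction with the largest called change (mean log2 CPM of at least 0) in each genotype comparison, the 3 per direction in the interaction and in the control stage comparison, and the highest per kilobase in each family. Other genes come from the lists, at most 3 per list and direction by adjusted p.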

Additional observations from a re-analysis of the deposited data

Results flagged for a closer look

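In 8 of 115 groups of 4 or 5 libraries, over the 29 genes given library by library, 1 library was farther from the rest than Dixon's 95% limit allows, and chance gives about 1 in 20. E13.5 control replicate 3 had 149 CPM of Ephb4 and 409 CPM of Unc5b, each the lowest of its group. E13.5 stabilized replicate 2 had 4.18 CPM of Epha6, the highest of its group, and 19.5 CPM of Ephb1, the lowest. Among E16.5 stabilized libraries, replicate 1 had 419 CPM of Plxna2, replicate 2 had 9.94 CPM of Epha3 and replicate 4 had 270.2 CPM of Efnb2. E16.5 control replicate 1 had 2.04 CPM of Sema7a.

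The genotype effect differed between the stages, by the interaction in edgeR, for 38 guidance genes. The values that follow are the log2 effect at E16.5 minus that at E13.5. Among the ephrins, the difference was positive for Efna1 (1.61), Efna3 (2.94), Efnb1 (1.85) and Efnb2 (3.16). It was positive for the Eph receptors Epha1 (1.75), Epha3 (2.46), Epha4 (2.94), Epha6 (6.02) and Epha7 (1.21). It was positive for the semaphorins Sema3a (3.59), Sema3c (2.16), Sema3d (3.58), Sema3e (3.07), Sema3f (1.45), Sema4b (1.896), Sema4g (2.82) and Sema5a (1.00). It was positive for the neuropilin and plexin receptors Nrp1 (3.02), Plxna2 (3.18), Plxna3 (1.44), Plxna4 (1.99) and Plxnd1 (1.72). It was positive too for the Slit, Robo, netrin and Unc5 genes Ntn3 (1.39), Ntn4 (3.35), Robo1 (0.78), Slit2 (0.82), Unc5b (3.28) and Unc5c (3.61). It was negative for Efna2 (-0.56), Ephb1 (-6.63), Ephb3 (-1.02), Sema3b (-5.24), Sema4d (-0.80), Sema6a (-1.20) and Sema6d (-1.77). The fitted differences of Epha8 (9.12), Slit1 (5.17) and Sema3g (-9.15) rest on a group with 0 counts, depend on the prior count and are no bounds. The size of the Ephb1 difference (-6.63) rests on 4 counts in E13.5 controls.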

How the results depend on the processing

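The number of guidance genes past the threshold in each direction was within 1.5 times its main value in all alternatives except the deposited offsets. This held with each single library left out as well. With the offsets, 13 genes were lower at E13.5 in place of 20, 5 had a negative interaction in place of 8, and 6 were higher in later controls in place of 12. The offsets also turned the stage difference of Sema4d in controls to -0.14 (adjusted p = 0.664) from 0.57. The cause was not tested. DESeq2 called 11 higher and 24 lower at E13.5 and 36 and 15 at E16.5.

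Leaving out 1 library at a time gave 8 to 11 higher and 14 to 21 lower at E13.5, 33 to 37 and 12 to 15 at E16.5, and 29 to 32 positive and 7 to 9 negative interactions. It gave 9 to 12 higher and 35 to 37 lower between stages in controls, and 13 to 17 and 12 to 19 in stabilized buds. Of the values for single genes under all alternatives, 5440 kept their side of the threshold, 205 were no longer past it and 90 newly passed. A further 1, past the threshold in the main fit, changed sign. Sign changes of values that passed in neither fit are among the 5440.

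Libraries with the same replicate number correlated at -0.09 to 0.17 at E13.5 and -0.10 to 0.13 at E16.5. Pairs with different numbers correlated at -0.19 to 0.30 and -0.16 to 0.18. Each pair is a control and a stabilized library, and these values are not correlations of whole expression profiles. Whether libraries of the same number shared a litter cannot be told from these values. With the replicate block, 7 rose and 19 fell at E13.5, 35 rose and 15 fell at E16.5, and the interaction was positive for 29 and negative for 7. The E13.5 calls of Sema3g, Sema4g, Slit1 and Unc5b were lost (adjusted p 0.0514 to 0.0894). So were the interaction calls of Efna2, Epha8 and Slit1 (0.0799 to 0.216).

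Depth limited Robo3, Robo4, Ntn5, Plxnb3 and Epha10, with 16 to 140 counts over all libraries, and the comparisons of Slit1, Epha8 and Sema3g with a group at 0 counts. It also limited the comparisons of Ephb1 with the E13.5 controls, which held 4 counts. Intervals and bounds cover counting error only.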
